A study of Mus musculus with 18 samples.

Results

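The genes described here are 39 coagulation, fibrinolysis and complement genes of the mouse, a named set of plasma proteins made mainly in the liver. They were found by symbol among the 55536 gene identifiers of the count tables, and 37 of them had enough counts to be among the 14835 genes tested. RNA came from the livers of 18 female C57BL/6 mice, each sequenced as 1 library, in 6 groups of 3 mice. The groups combine 3 genotypes with 2 treatments, peanut oil (the vehicle) or 2,3,7,8-tetrachlorodibenzo-p-dioxin (TCDD), a dioxin that activates the aryl hydrocarbon receptor (AHR). Both were given by gavage every 4 days, TCDD at 100 µg/kg, and the livers were taken at day 92. The genotype called WT here was AhRfl/fl, with a floxed and undeleted receptor gene. The genotype called dHep was AhRΔHep, with the receptor gene deleted in hepatocytes, and the genotype called dHSC was AhRΔHSC, with the deletion in hepatic stellate cells. The Cre driver of each deletion and the age of the mice are not given in the sources used here. Mice are named by the number in their label.

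Hepatocytes secrete most of the proteins that make blood clot and most of the complement proteins that tag and lyse microbes. In coagulation a chain of proteases ends with thrombin, which cuts fibrinogen into fibrin, and plasmin later dissolves the fibrin. In complement the classical, lectin and alternative pathways meet at C3, and the terminal proteins C5 to C9 form a pore. Several of these genes belong to the acute phase response, in which interleukin 6 acting through STAT3 changes the set of proteins that hepatocytes secrete.

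Library totals ran from 12706490 to 27240877 counts, and the 39 genes took between 1.87% and 4.73% of them. All 9 hepatocyte marker genes were detected in each of the 6 groups. Cyp1a1, the cytochrome P450 gene that AHR switches on, rose with TCDD in WT by a log2 difference of 8.70 ± 0.92 (SE, edgeR quasi-likelihood test, adjusted p = 4.6e-05). In dHep its difference was 2.26 ± 0.69 (adjusted p = 0.473). In 5 libraries more than 2% of counts (2.20% to 4.25%) lay outside protein-coding genes, against at most 1.76% in the other 13. They were mice 9 and 15 of dHep vehicle, 16 of dHep TCDD, 17 of dHSC vehicle and 18 of dHSC TCDD, and they stood at 62.1 or above on the first principal component of log2 CPM, against 36.8 or below for the other 13. Mouse 18 had 28.4% of its counts in mitochondrial genes. Skeletal muscle markers summed to 781 CPM in WT vehicle mouse 1 and to at most 2.72 CPM elsewhere.

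A level of 0 in these tables needs care for some of the 39 genes. Serpind1, which encodes heparin cofactor II (chromosome 16, 17331371 to 17343575), and Cfb, which encodes complement factor B (chromosome 17, 34856374 to 34862518), had no count in any of the 18 libraries. In the GRCm38 annotation used, GENCODE M21, all of the exon sequence of Serpind1 lies within the span of another gene, and for Cfb the share is 98.7%. All 1290 protein-coding genes that lie wholly inside the span of another gene were without counts throughout, as were 17.5% of the 20738 other protein-coding genes. The 0 for both genes therefore says nothing about their expression, and they were in no test. C2, the complement protease that pairs with C4, has 95.8% of its exon sequence within other spans and was counted at 0.183 to 2.81 CPM. C1s1 (80.4%), Masp2 (54.9%), Klkb1 (43.2%) and Serpinc1 (34.4%) were also partly covered, so their levels are lower bounds. C4b, C1ra, C1s1 and Kng1 each have a near-identical neighbour, and how reads were shared between the copies is not given in the sources used here.

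The sequences below are promoters of the 2 genes that passed the test in any comparison (Apcs, F7) and of 2 of the neighbouring fibrinogen chain genes (Fgb, Fgg), shown for the elements that AHR and STAT3 are known to bind. Each is the 250 bases before the RefSeq transcription start, from RefSeq on GRCm38.p6, written 5′ to 3′ on the strand of the gene. Capitals mark matches to the motifs searched on both strands. Apcs lies at chr1:172895055-172895304 on the minus strand, F7 at chr8:13025784-13026033 on the plus strand, Fgb at chr3:83049864-83050113 on the minus strand and Fgg at chr3:83007474-83007723 on the plus strand.
Apcs: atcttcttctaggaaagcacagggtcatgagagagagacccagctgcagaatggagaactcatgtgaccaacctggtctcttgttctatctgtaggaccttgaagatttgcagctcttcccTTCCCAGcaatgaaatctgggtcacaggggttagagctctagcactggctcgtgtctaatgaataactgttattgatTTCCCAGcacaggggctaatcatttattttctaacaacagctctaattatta
F7: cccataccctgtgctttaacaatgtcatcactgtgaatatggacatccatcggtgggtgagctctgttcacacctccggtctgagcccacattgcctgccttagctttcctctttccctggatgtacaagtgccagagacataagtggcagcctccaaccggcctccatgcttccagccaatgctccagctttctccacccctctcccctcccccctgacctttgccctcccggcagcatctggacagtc
Fgb: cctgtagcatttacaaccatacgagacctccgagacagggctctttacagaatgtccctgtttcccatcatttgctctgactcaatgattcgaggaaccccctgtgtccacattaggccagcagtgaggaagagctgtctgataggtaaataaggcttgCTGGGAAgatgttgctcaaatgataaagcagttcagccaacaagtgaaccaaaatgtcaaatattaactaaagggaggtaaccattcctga
Fgg: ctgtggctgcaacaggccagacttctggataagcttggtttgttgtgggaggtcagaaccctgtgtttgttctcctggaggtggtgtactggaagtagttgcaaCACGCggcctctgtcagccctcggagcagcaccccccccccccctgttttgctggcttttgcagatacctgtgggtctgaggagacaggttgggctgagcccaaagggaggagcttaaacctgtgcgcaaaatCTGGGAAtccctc
The Apcs window held CTGGGAA, the core of the acute phase element that STAT3 binds, at 2 positions, both on the opposite strand (read as TTCCCAG in the line above), starting 129 and 52 bases before the start. Fgb held CTGGGAA 91 bases and Fgg 13 bases before the start. Fgg also held GCGTG, the core that AHR binds with its partner ARNT, on the opposite strand 146 bases before the start. Fga held TTCCNGGAA, the STAT palindrome, 234 bases before its start. The F7 window held none of the 4 motifs searched, which were GCGTG, the longer TNGCGTG that contains it, TTCCNGGAA and CTGGGAA. RefSeq promoters were at hand for 31 of the 39 genes, 33 windows in all. CTGGGAA was in 6 of the 33 (Apcs, C1ra, F9, Fgb, Fgg and Masp2), against 9.1% of 32841 promoters of the same length. GCGTG was in 3 of the 33 (F11, Fgg and Serpinf2), against 28.2% of all promoters. TNGCGTG was in 1 (F11), against 4.1%, and TTCCNGGAA in 2 (Fga and Pros1), against 0.913%. A match describes these letters only and does not show binding.

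C3, on which the complement pathways converge, had the highest level of the 36 genes that could be ranked per length, at 1685 CPM per kb of countable exon as a mean over the 18 livers. It was followed by the fibrinogen γ chain Fgg (1332), Apoh, which encodes β2-glycoprotein I (1182), the fibrinogen chains Fgb (921) and Fga (877), the kininogen Kng1 (845) and the mannose-binding lectin Mbl2 (537), all on that scale. C6, a terminal pore component, was lowest at 8.46. Countable exon is exon sequence outside the spans of other genes. Whether reads in introns were counted is not given in the sources used here, and the ranking would depend on it. Summed over the 39 genes, the level was 34368, 50968 and 43113 CPM in the 3 WT vehicle livers and 27242, 30679 and 33230 CPM with TCDD. Every WT TCDD liver was thus below every WT vehicle liver on this scale, whose library sizes were adjusted by TMM scaling. In dHep the sums were 42475, 25824 and 40218 CPM with vehicle and 45293, 41864 and 33818 CPM with TCDD, which overlap. In dHSC they were 42711, 40587 and 34447 CPM with vehicle and 34157, 27737 and 17844 CPM with TCDD, without overlap. As a share of all counts, without that scaling, the 39 genes overlapped between vehicle and TCDD livers in WT and in dHSC. The shares were 3.60% to 4.21% with vehicle and 3.06% to 3.95% with TCDD in WT. In dHSC they were 3.07% to 4.24% and 1.87% to 3.64%.

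In WT livers TCDD lowered 2 of the 37 tested genes, Apcs and F7, and raised none, where 1.95% of all tested genes were called lower and 3.43% higher. The fitted difference was below 0 for 35 of the 37 genes, with a median of -0.48 on the log2 scale, while 51.2% of all genes were below 0 with a median of -0.02. With 1 library left out, the median of the 37 ran from -0.59 (without WT vehicle mouse 1) to -0.33 (without WT vehicle mouse 7). An unadjusted p under 0.05 was reached by 7 of the 37, all with lower levels, against 16.7% of all genes in either direction. In 11 of the 37 genes every TCDD liver lay below every vehicle liver, against 11.4% of all genes, and in none did every TCDD liver lie above, against 13.4%. The 11 were F2, F5, F7, F13b, Pros1, Apoh, Plg, Masp1, Mbl2, Hc and Apcs. These are bulk livers, in which fewer cells of a type and less RNA per cell cannot be told apart. The 9 hepatocyte markers summed to 91004 to 154470 CPM in WT vehicle and to 49375 to 89428 CPM in WT TCDD livers, and 5 neutrophil markers to 1.18 to 3.44 CPM and to 55.3 to 77.9 CPM. Cholangiocyte markers summed to 48.4 to 64.7 CPM in WT vehicle and to 178 to 250 CPM in WT TCDD livers. Marker sums of B cells, megakaryocytes and platelets, and T and NK cells were also higher in every treated WT liver than in every control. Those of macrophages, endothelium and stellate cells overlapped. The part of any of these cell types in the WT differences was not tested.

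**Figure D1:**
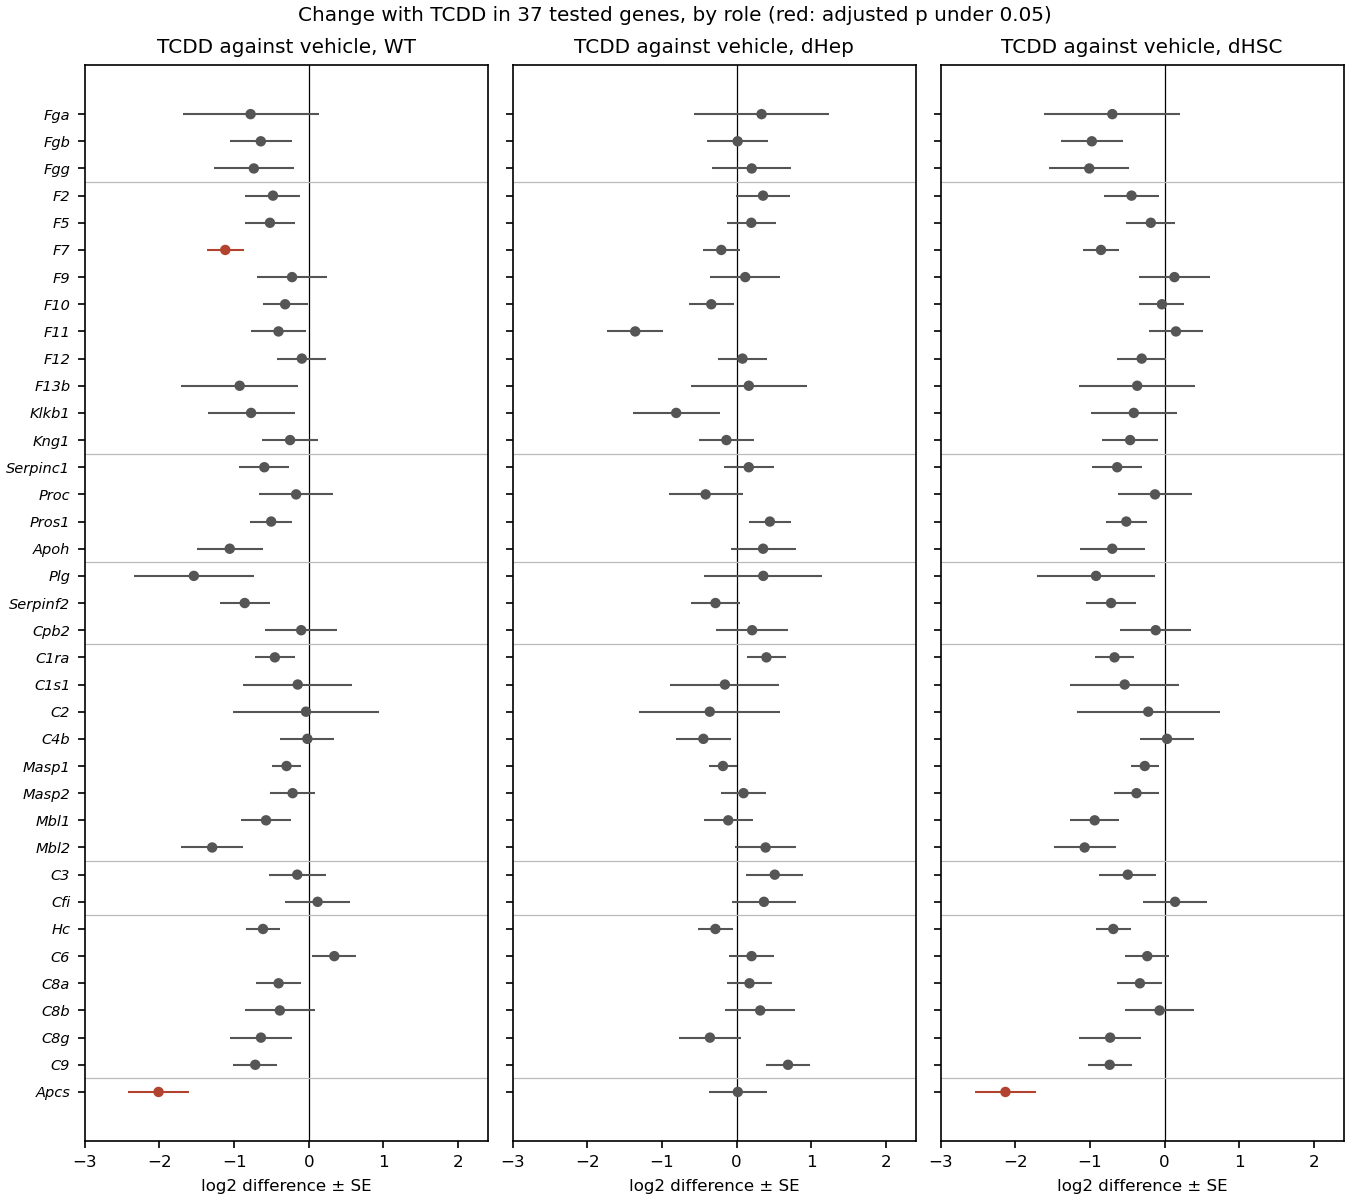
Difference between TCDD and vehicle livers on the log2 scale (horizontal axis, ± SE from the edgeR fit) for the 37 tested genes, grouped by role, in WT, dHep and dHSC (3 mice per group). In WT 35 of the 37 points lie below 0 and in dHSC 33, against 14 in dHep, and the red points are the differences that passed the test, Apcs and F7 in WT and Apcs in dHSC.

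In dHSC livers Apcs passed the test, again lower with TCDD, where 0.843% of all genes were called lower and 1.71% higher. The fitted difference was below 0 for 33 of the 37 genes, with a median of -0.46 against -0.004 for all genes, and 9 of the 37 had an unadjusted p under 0.05, all lower, against 12.2% of all genes in either direction. That median was -0.71 without dHSC TCDD mouse 6 and -0.31 without the 5 libraries high in counts outside protein-coding genes. In 14 of the 37 every TCDD liver lay below every vehicle liver, against 7.7% of all genes, and in none above, against 9.61%. Of the 9 hepatocyte markers, 8 had differences below 0 in dHSC (median -0.71), against 9 in WT (median -0.77) and 4 in dHep (median 0.08). Their sums were 82860 to 102860 CPM with vehicle and 59341 to 95053 CPM with TCDD in dHSC, ranges that overlap. Among the other marker lists, those of neutrophils, B cells and cholangiocytes did not overlap there. Neutrophil markers summed to 1.45 to 4.36 CPM with vehicle and 8.45 to 117 CPM with TCDD. B cell markers summed to 2.49 to 5.91 and 9.0 to 45.7 CPM, and cholangiocyte markers to 37.4 to 89.5 and 109 to 133 CPM. Those of macrophages, endothelium, stellate cells, T and NK cells, and megakaryocytes and platelets overlapped. The part of any of these cell types in the dHSC differences was not tested. In dHep livers none of the 37 genes passed the test with edgeR or with DESeq2, where edgeR called 0.0674% of all genes. There 23 of the 37 differences were above 0 and 14 below, with a median of 0.11, which was -0.09 without dHep vehicle mouse 9. Only C9 (higher) and F11 (lower) had an unadjusted p under 0.05 in dHep, against 6.7% of all genes, and they were the 2 genes whose treated and control livers did not overlap, against 9.59% of all genes.

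Apcs encodes serum amyloid P component, the mouse's pentraxin of the acute phase, which binds microbes, chromatin and amyloid and can engage complement. Its gene lies on chromosome 1 from 172893961 to 172895041 with no other annotated gene over it. WT vehicle livers held 87.9, 164 and 175 CPM and WT TCDD livers 19.5, 34.9 and 51.3 CPM. Every treated WT liver was below every control. The means were 142 ± 47.4 and 35.2 ± 15.9 CPM (SD, n = 3 each), a log2 difference of -2.01 ± 0.41 (SE; edgeR quasi-likelihood test, Benjamini-Hochberg adjusted p = 0.00726). In dHSC, vehicle livers held 130, 149 and 158 CPM and TCDD livers 48.6, 27.3 and 23.7 CPM. These again did not overlap, with a log2 difference of -2.13 ± 0.41 (edgeR, adjusted p = 0.0084). In dHep, vehicle livers held 104, 97.1 and 198 CPM and TCDD livers 106, 137 and 160 CPM, within the same range. The dHep difference was 0.01 ± 0.39 (edgeR, adjusted p = 0.998). The response in dHep was higher than that in WT by 2.03 ± 0.56 on the log2 scale, which did not pass with edgeR (adjusted p = 0.146) and passed with DESeq2 (0.0314). Apcs remained called in each of the 6 fits that left out 1 WT library and in each of the 6 that left out 1 dHSC library. In dHSC the call was lost when only the 2 dHSC groups were fitted (adjusted p = 0.0613) and without the 5 libraries high in counts outside protein-coding genes (-1.88, adjusted p = 0.0886).

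F7 encodes coagulation factor VII, the protease that starts clotting when it meets tissue factor, and it was the one clotting gene that passed the test. It lies on chromosome 8 from 13026034 to 13035809, next to F10. WT vehicle livers held 139, 245 and 199 CPM and WT TCDD livers 82.4, 101 and 84.5 CPM. All 3 treated WT livers were below all 3 controls, and they differed little among themselves. The means were 194 ± 52.9 and 89.4 ± 10.3 CPM (SD, n = 3 each), a log2 difference of -1.12 ± 0.25 (edgeR, adjusted p = 0.0132). This call was lost without WT TCDD mouse 2 or 14 or WT vehicle mouse 7 or 13 (adjusted p up to 0.0775, log2 differences of -0.92 or lower) and with only the 2 WT groups in the fit (adjusted p = 0.0508). In dHSC, vehicle livers held 170, 192 and 208 CPM and TCDD livers 132, 101 and 82.4 CPM, without overlap. That difference of -0.85 ± 0.25 did not pass with edgeR (adjusted p = 0.0928) and passed with DESeq2 (0.00879). In dHep, vehicle livers held 157, 143 and 177 CPM and TCDD livers 142, 152 and 120 CPM, which overlap (-0.21 ± 0.25, edgeR adjusted p = 0.915). The dHep response differed from that of WT by 0.91 ± 0.35 (edgeR, adjusted p = 0.428).

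**Figure D2:**
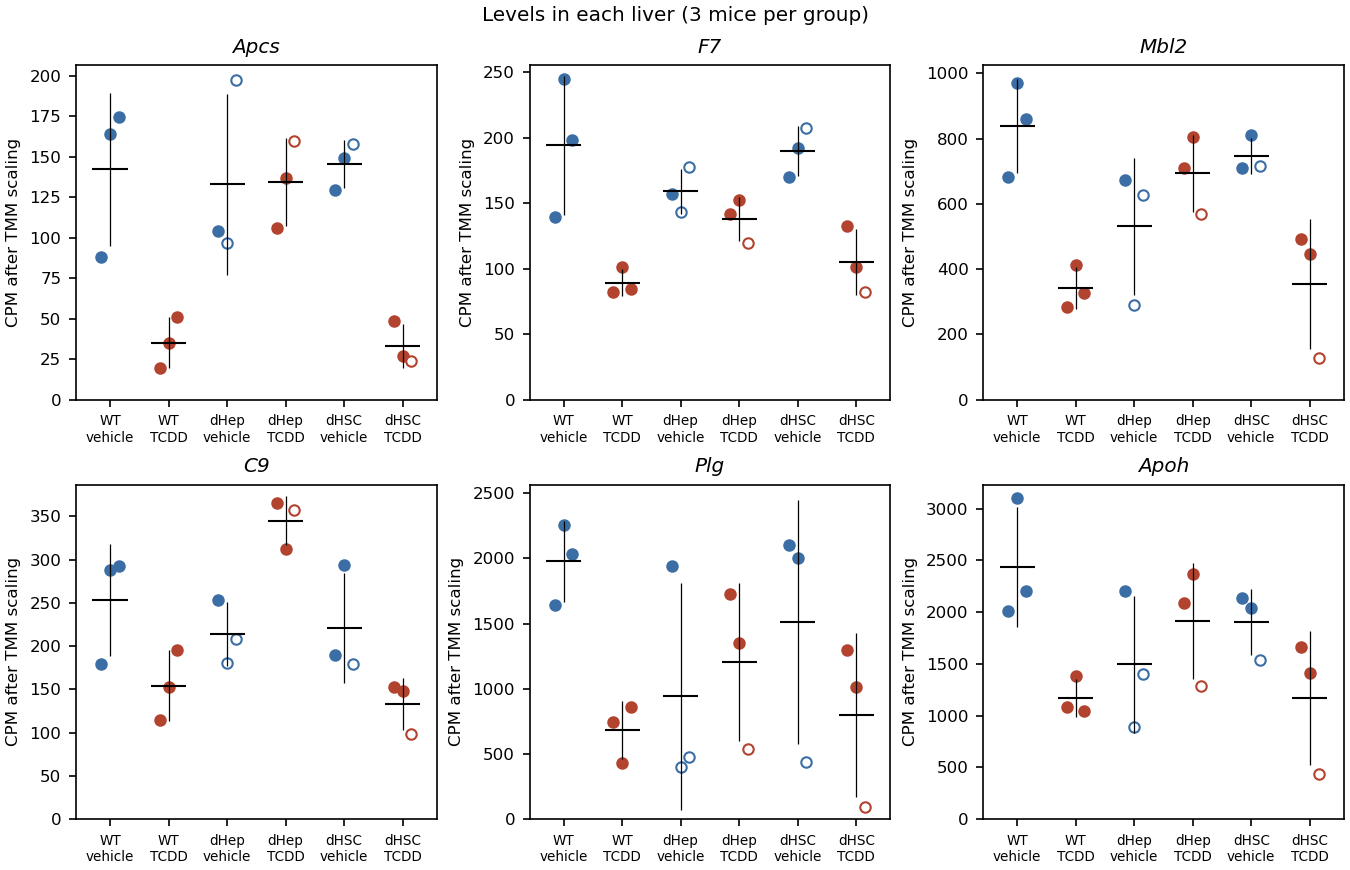
CPM after TMM scaling (vertical axes) of 6 of the genes in each of the 18 livers, with the mean (bar) and SD (line) of the 3 mice of a group, vehicle in blue and TCDD in red. Open circles are the 5 libraries with over 2% of counts outside protein-coding genes. The 3 treated livers lie below the 3 controls for Apcs and F7 in WT and in dHSC, and above them for C9 in dHep.

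The other clotting proteases and cofactors gave no call in any genotype. All 10 genes of this role, F7 included, had a WT difference below 0, with a median of -0.44 and a range from -1.12 to -0.09. In dHep 5 were below and 5 above 0 (median -0.03), and in dHSC 8 were below 0 (median -0.34). Kng1, the kininogen from which bradykinin is cut and the most abundant of the role in CPM, held 2220, 3366 and 2272 CPM in WT vehicle and 1716, 3086 and 1804 CPM in WT TCDD livers. These overlap, and its differences were -0.25 ± 0.37 in WT, -0.14 ± 0.37 in dHep and -0.46 ± 0.37 in dHSC (edgeR, adjusted p of 0.758 or higher). F11, which encodes factor XI of the contact pathway and was singled out after its values were seen, went another way. It held 73.7, 169 and 135 CPM in dHep vehicle and 34.1, 51.9 and 61.0 CPM in dHep TCDD livers, without overlap (-1.36 ± 0.37, edgeR adjusted p = 0.389). The 169 and 135 CPM were those of mice 9 and 15, 2 of the 5 libraries high in counts outside protein-coding genes, in which F11 was higher than in the other mice in all 4 groups that hold such libraries. Without the 5 libraries the difference of F11 was -0.77 ± 0.45 (edgeR, adjusted p = 0.99). The third control, at 73.7 CPM, lay near the WT vehicle mean of 73.0 CPM. In WT its difference was -0.41 ± 0.37 and in dHSC 0.15 ± 0.36, with overlapping livers.

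The 3 fibrinogen chains, which assemble into the clot-forming protein, lie side by side on chromosome 3, with Fgg at 83007724 to 83015049, Fga at 83026076 to 83033627 and Fgb at 83040141 to 83049863. None passed the test in any comparison. Fgb, the most abundant of them in CPM, held 3166, 5329 and 4440 CPM in WT vehicle livers and 2059, 2551 and 3675 CPM in WT TCDD livers, which overlap. In dHSC it held 4081, 3772 and 3605 CPM with vehicle and 2867, 1970 and 992 CPM with TCDD, without overlap. In dHep it held 5009, 2000 and 5255 CPM with vehicle and 4503, 3517 and 4351 CPM with TCDD. The differences of Fgb were -0.64 ± 0.41 in WT, -0.98 ± 0.42 in dHSC and 0.01 ± 0.41 in dHep (edgeR, adjusted p = 0.523, 0.332 and 0.999). The medians of the 3 chains were -0.74 in WT, -0.98 in dHSC and 0.20 in dHep.

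The chains did not move together across libraries. Fga held 5098 CPM in dHep vehicle mouse 3, but 738 and 1219 CPM in mice 9 and 15 of the same group, while Fgb held 5009, 2000 and 5255 CPM in the same 3 livers. The ratio of Fga to Fgb ran from 0.133 to 0.369 in the 5 libraries high in counts outside protein-coding genes and from 0.425 to 1.11, with a median of 0.977, in the other 13. The lowest of the 13 was WT TCDD mouse 8, the library nearest to the 5 on the first principal component. The ratio of Fgg to Fgb ran from 0.342 to 0.686 and from 0.512 to 0.791 in the same sets, which overlap. The 5 libraries include vehicle and TCDD livers of dHep and dHSC and none of WT. The lowest Fga level of all, 132 CPM, was in dHSC TCDD mouse 18, where Fgb held 992 CPM. The spread of Fga within groups, a median SD of 1.17 on the log2 scale over the 6 groups, was the largest of the 37 genes, and its SE in each TCDD comparison was 0.91.

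**Figure D3:**
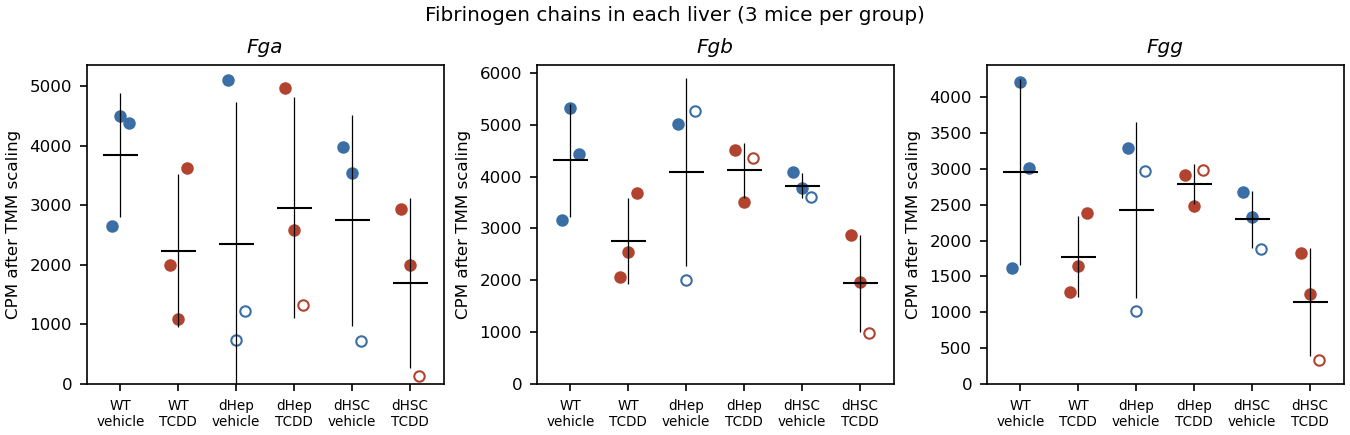
CPM after TMM scaling (vertical axes) of the 3 fibrinogen chains in each of the 18 livers, with the mean (bar) and SD (line) of the 3 mice of a group. The open circles, the 5 libraries with over 2% of counts outside protein-coding genes, hold the 5 lowest Fga levels outside WT TCDD, from 132 to 1322 CPM, while 3 of the 5 hold Fgb at 3605 to 5255 CPM.

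The anticoagulant genes restrain clotting: antithrombin (Serpinc1), protein C (Proc), protein S (Pros1) and β2-glycoprotein I (Apoh) were tested. All 4 had differences below 0 in WT (median -0.55) and in dHSC (median -0.57), and 3 of 4 were above 0 in dHep (median 0.26), with no call. Serpinc1 held 2210, 3656 and 2532 CPM in WT vehicle and 1412, 2579 and 1566 CPM in WT TCDD livers. The 2579 CPM of mouse 8 lay above 2 of the 3 controls, and the difference was -0.60 ± 0.33 (edgeR, adjusted p = 0.42). In dHSC it held 2673, 2369 and 2725 CPM with vehicle and 2006, 1792 and 1202 CPM with TCDD, without overlap (-0.64 ± 0.33, adjusted p = 0.487 with edgeR). In dHep it held 2445, 1524 and 3134 CPM with vehicle and 2563, 2763 and 2621 CPM with TCDD (0.16 ± 0.33). Apoh, singled out after its values were seen, held 2006, 3100 and 2201 CPM in WT vehicle and 1086, 1379 and 1042 CPM in WT TCDD livers, without overlap. Its difference of -1.06 ± 0.44 did not pass the test (edgeR, adjusted p = 0.212).

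The fibrinolysis genes were plasminogen (Plg), whose product dissolves fibrin, its inhibitor α2-antiplasmin (Serpinf2) and the carboxypeptidase Cpb2, which protects fibrin. Plg held 1644, 2257 and 2035 CPM in WT vehicle and 747, 431 and 863 CPM in WT TCDD livers. The groups were far apart, at 1979 ± 310 and 681 ± 224 CPM (SD, n = 3 each). The difference of -1.54 ± 0.81 did not pass the test over all 18 libraries (edgeR, adjusted p = 0.374). It passed when only the 2 WT groups were fitted (adjusted p = 0.0376) and without the 5 libraries (adjusted p = 0.00497), at -1.54 in both with edgeR. In dHep vehicle livers Plg held 1942, 401 and 478 CPM, and in dHSC TCDD livers 1294, 1015 and 93.4 CPM, the low values being those of mice 9, 15 and 18, 3 of the 5 libraries. The differences of Plg were 0.36 ± 0.79 in dHep and -0.92 ± 0.79 in dHSC. Serpinf2 differed by -0.86 ± 0.33 in WT (edgeR, adjusted p = 0.173) and Cpb2 by -0.10 ± 0.48.

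The classical and lectin pathway genes recognise targets and cut C4 and C2. All 8 had WT differences below 0, with a median of -0.26, 7 of 8 were below 0 in dHSC (median -0.46) and 5 of 8 in dHep (median -0.14), with no call. C4b, the most abundant of them in CPM, held 875, 1152 and 931 CPM in WT vehicle and 876, 997 and 1046 CPM in WT TCDD livers. The WT means of C4b, 986 ± 146 and 973 ± 87.4 CPM (SD, n = 3 each), differed by less than the spread between mice (-0.02 ± 0.36, edgeR adjusted p = 0.992). Mbl2, which encodes a mannose-binding lectin and was singled out after its values were seen, held 684, 969 and 861 CPM in WT vehicle and 285, 412 and 328 CPM in WT TCDD livers, without overlap. Its differences were -1.29 ± 0.42 in WT and -1.07 ± 0.41 in dHSC (edgeR, adjusted p = 0.086 and 0.259), and the WT difference passed with DESeq2 (adjusted p = 0.0242) and with only the 2 WT groups in the edgeR fit (0.0337). Its dHSC livers held 711, 811 and 717 CPM with vehicle and 491, 447 and 127 CPM with TCDD, without overlap. In dHep Mbl2 held 673, 291 and 628 CPM with vehicle and 709, 804 and 570 CPM with TCDD (0.39 ± 0.41). Masp1, a protease bound to the lectins, had the smallest spread within groups of the 37 genes, a median SD of 0.11 on the log2 scale. Its treated livers lay below all controls in WT and in dHSC, with differences of -0.30 ± 0.19 and -0.27 ± 0.19.

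C3 held 8897, 9981 and 10415 CPM in WT vehicle and 9109, 7814 and 9400 CPM in WT TCDD livers, which overlap (-0.15 ± 0.38, edgeR adjusted p = 0.942). In dHep it held 9092, 5240 and 6685 CPM with vehicle and 12968, 10915 and 6046 CPM with TCDD, and in dHSC 11435, 10481 and 6994 CPM with vehicle and 8956, 7898 and 3681 CPM with TCDD. The differences of 0.51 ± 0.38 and -0.49 ± 0.38 did not pass the test (adjusted p = 0.841 and 0.742). Cfi, which encodes the factor I protease that inactivates C3b, was one of the 2 genes with a WT difference above 0 (0.12 ± 0.43). The other was C6 (0.34 ± 0.30).

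Of the 6 terminal complement genes, 5 had WT differences below 0 (median -0.51), all 6 in dHSC (median -0.51) and 2 in dHep (median 0.19), with no call. C8g, the γ chain of C8 and the most abundant of the role in CPM, held 386, 722 and 455 CPM in WT vehicle and 222, 544 and 238 CPM in WT TCDD livers, which overlap (-0.64 ± 0.42, edgeR adjusted p = 0.533). C8g held 415, 451 and 864 CPM in dHSC vehicle and 357, 342 and 344 CPM in dHSC TCDD livers. Those did not overlap, and the difference was -0.73 ± 0.42 (adjusted p = 0.559 with edgeR). The 864 CPM was that of mouse 17, one of the 5 libraries, and the difference of C8g was -0.33 without that mouse and -0.31 without the 5 libraries. Hc, which encodes C5 and was singled out after its values were seen, varied little between mice. Its WT vehicle livers held 480, 485 and 557 CPM and its WT TCDD livers 278, 367 and 349 CPM, and its dHSC livers 554, 530 and 564 CPM against 341, 290 and 392 CPM. Neither pair overlapped, with differences of -0.61 ± 0.23 and -0.69 ± 0.23 (edgeR, adjusted p = 0.16 and 0.166). The dHSC difference passed with DESeq2 (adjusted p = 0.0354). In dHep the difference of Hc was -0.29 ± 0.23.

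C9, the pore-forming subunit, was singled out after its values were seen. It was the one gene of the 37 whose treated livers lay above the controls in a genotype. In dHep it held 254, 181 and 208 CPM with vehicle and 365, 313 and 357 CPM with TCDD, means of 214 ± 36.8 and 345 ± 28.2 CPM (SD, n = 3 each). In dHSC it held 190, 294 and 179 CPM with vehicle and 152, 148 and 98.4 CPM with TCDD, every treated liver below every control. In WT it held 179, 288 and 293 CPM with vehicle and 114, 152 and 196 CPM with TCDD, which overlap. The differences were 0.69 ± 0.29 in dHep, -0.74 ± 0.29 in dHSC and -0.72 ± 0.29 in WT, none of which passed the test (edgeR, adjusted p = 0.678, 0.279 and 0.199). Compared directly, the dHep and dHSC responses of C9 did not differ past the threshold either, in a comparison that called none of the 37 genes and 0.431% of all genes.

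The difference between the dHep and WT responses was tested directly. It was above 0 for 29 of the 37 genes, with a median of 0.57 against -0.02 for all genes. The median was 0.36 without WT TCDD mouse 2 or WT vehicle mouse 7 and 0.38 without WT vehicle mouse 13 or dHep vehicle mouse 9. At the level of single genes, 7 of the 37 had an unadjusted p under 0.05, all higher in dHep (F7, Pros1, Apoh, C1ra, Mbl2, C9 and Apcs), against 8.43% of all genes in either direction. None passed the adjusted test with edgeR, where 0.351% of all genes were called higher and 0.506% lower, and DESeq2 called C9 and Apcs. The fibrinogen chains had a median of 0.94 and the anticoagulants of 0.85, the clotting proteases of 0.25 and the classical and lectin genes of 0.21. The dHSC and WT responses differed by a median of 0.02 over the 37 genes, with 19 above and 18 below 0, none at an unadjusted p under 0.05 (1.57% of all genes) and none called by edgeR or DESeq2. That median ran from -0.13 to 0.13 with 1 library left out. In vehicle livers dHep differed from WT by a median of -0.24 and dHSC from WT by -0.08, with no gene of the 37 called by either tool (edgeR called 0% of all genes in each). Both medians moved with single libraries: that of dHep was -0.03 without WT vehicle mouse 7, 0.04 without dHep vehicle mouse 9 and -0.09 without the 5 libraries, and that of dHSC was 0.07 without WT vehicle mouse 7. At an unadjusted p under 0.05 stood 1 of the 37 in dHep (F11), against 6.91% of all genes, and 0 in dHSC, against 1.48%. Every dHep vehicle liver lay below every WT vehicle liver for Pros1 and Mbl2, against 7.85% of all genes separated either way, and none of the 37 was so separated in dHSC, against 4.41%. These counts do not show that the genotypes were alike: the SE of a response difference was 0.56 for Apcs and 1.12 for Plg.

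Among other genes of the same systems, receptors, inhibitors and products of other cells included, most of those called in WT were higher with TCDD. Of 29 other coagulation and fibrinolysis genes tested, 6 rose and 1 fell, with a list median of 0.15. F2rl1, a receptor cleaved by clotting proteases, rose by 3.49 ± 0.80 in WT and by 3.36 ± 0.82 in dHSC (SE, edgeR, adjusted p = 0.016 and 0.038), with 0.494 ± 0.18 CPM in WT vehicle and 5.61 ± 1.5 CPM in WT TCDD livers (SD, n = 3 each). In dHep the difference of F2rl1 was 0.98 ± 0.79. Plaur, the urokinase receptor, rose by 2.17 ± 0.47, Vwf, the platelet-tethering von Willebrand factor, by 1.70 ± 0.40 and Anxa2, a plasminogen receptor on cells, by 0.98 ± 0.27, all in WT. A2m, a protease inhibitor of plasma, was also called higher, from 0.0382 to 0.751 CPM in WT. Serpine2, an inhibitor of thrombin on cells, fell by 1.44 on the log2 scale in WT (adjusted p = 0.0187 with edgeR), and its response in dHep was higher than in WT by 2.38 ± 0.48 (adjusted p = 0.0256), the one gene of these lists whose response differed between dHep and WT.

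Of 28 other complement genes tested, 6 rose in WT and none fell, with a list median of 0.20. They were the C5a and C3a receptors C5ar1 (3.73 ± 0.53) and C3ar1 (2.44 ± 0.37), the C1q chains C1qa (1.53 ± 0.36) and C1qb (1.28 ± 0.33), the B cell receptor for C3 fragments Cr2 (2.02 ± 0.55) and Cd93 (1.48 ± 0.38). In dHSC C5ar1 was called (2.54 ± 0.50), and in dHep none was (C5ar1 2.66 ± 0.51, edgeR adjusted p = 0.0757). Markers of 8 Kupffer cell and macrophage genes summed to 217 to 634 CPM in WT vehicle and 503 to 790 CPM in WT TCDD livers, and 4 B cell markers to 3.50 to 5.73 and 23.7 to 40.3 CPM. Their part in these rises was not tested.

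The lists of other hepatocyte plasma proteins and of hepatocyte transcription factors gave no call in WT. Of 15 other plasma proteins tested, none was called in WT and 12 had differences below 0, with a median of -0.58. In dHSC 13 of the 15 were below 0 (median -0.39) and in dHep 10 (median -0.18), with no call. Alb, the albumin gene, held 85737 ± 27376 CPM in WT vehicle and 51819 ± 18917 CPM in WT TCDD livers (SD, n = 3 each; -0.73 ± 0.42, edgeR adjusted p = 0.449). Of 15 hepatocyte transcription factors, none was called in WT and 12 were below 0 (median -0.47). Cebpa, an activator of hepatocyte genes, differed by -1.15 ± 0.38 in WT (adjusted p = 0.098 with edgeR) and by 0.02 ± 0.38 in dHep, and Hnf4a by -0.14 ± 0.29 in WT. Inducible acute phase proteins were called in the other direction. Of 10 tested, 5 rose in WT (Saa1, Saa2, Saa3, Orm2 and Lcn2), with a list median of 1.60. Saa1, a serum amyloid A, rose from 37.1 ± 16.2 to 918 ± 313 CPM in WT (4.63 ± 0.66, edgeR adjusted p = 0.00052). The serum amyloid A genes and Apcs, both acute phase genes in the mouse, thus differed in direction in the same livers. Of 9 genes of interleukin 6 and acute phase signalling, Il1r1 (1.72 ± 0.39), Socs3 (1.54 ± 0.41) and Cebpd (1.34 ± 0.36) rose in WT, and Stat3 differed by -0.01 ± 0.35. Il6 itself averaged at most 0.203 CPM in any group and was not tested. In dHSC Lcn2 was called higher among these 19 genes and in dHep none was.

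The libraries differed in the 37 genes beyond genotype and treatment. In the 5 libraries named above, 14 of the 37 genes were lower than in the other mice of the same group in all 4 groups that hold such libraries, and 9 were higher in all 4. The same counts were not made over all genes, so it is not known whether 14 and 9 are more than usual. The largest mean log2 differences were those of Fga (-2.61), Plg (-2.38), F13b (-2.30) and F9 (-1.26) on the low side and of C1s1 (1.82), C2 (1.45), Klkb1 (1.25) and Proc (1.08) on the high side. C1s1, C2 and Klkb1 have 80.4%, 95.8% and 43.2% of their exon sequence within other gene spans. C2 was counted at only 0.183 to 2.81 CPM, so its difference rests on few counts. Over 9471 protein-coding genes with at least 5 CPM the median was -0.16, and 1.3% of them stood at or below Fga and 1.13% at or above C1s1. The mean differences of Apcs (0.10), F7 (-0.14) and Hc (0.21) were small, but those of single groups varied. They ran from -0.61 to 0.41 for Apcs, from -0.49 to 0.20 for F7 and from -0.09 to 0.54 for Hc. The -0.61 of Apcs and the -0.49 of F7 were in dHSC TCDD. WT holds none of these libraries. With the log2 of the share that falls outside protein-coding genes as a covariate, 6 of the 37 genes were called lower in WT (F7, Apoh, Plg, Mbl2, Hc and Apcs). In dHSC the count was 4 with the covariate (F7, Mbl2, Hc and Apcs), and in dHep it was 0. Calls over all genes, either way, also rose with the covariate, from 798 to 1926 in WT and from 379 to 792 in dHSC. Without the 5 libraries, which leaves 1 dHep vehicle liver, the median of the 37 genes was -0.47 in WT, -0.31 in dHSC and 0.07 in dHep.

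**Figure D4:**
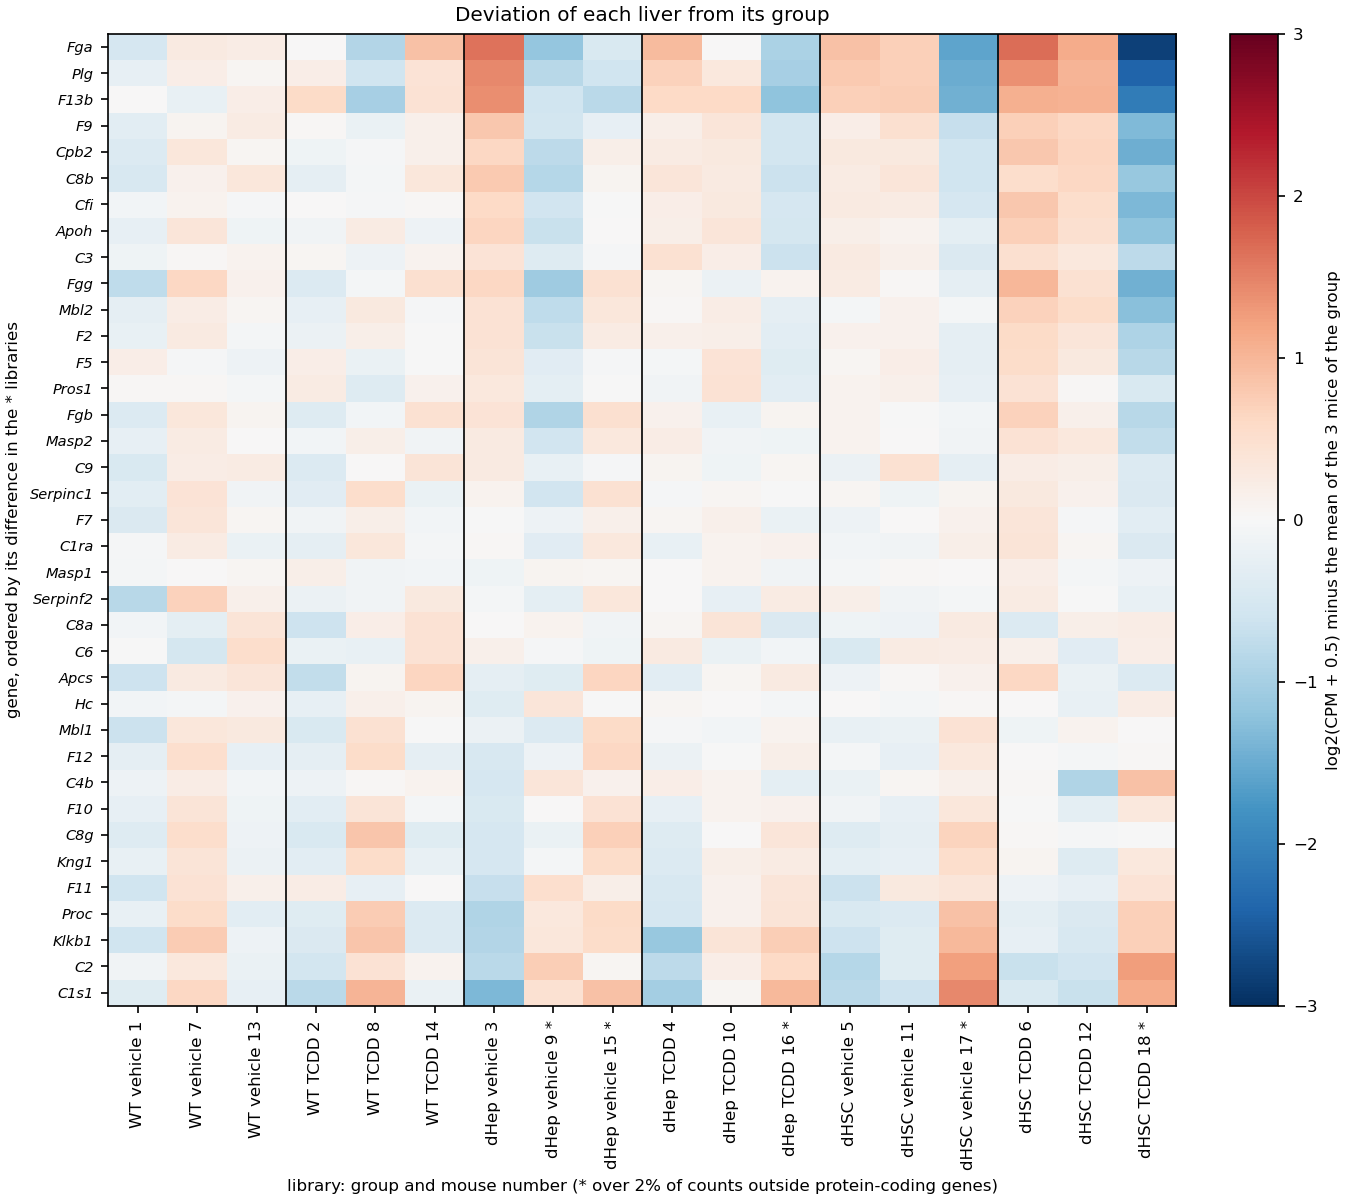
Deviation of each library from the mean of its group (colour, log2 of CPM plus 0.5) for the 37 tested genes (rows, ordered by their mean difference in the 5 libraries marked *) in the 18 livers (columns, split by group). Fga, Plg and F13b at the top are low and C1s1, C2 and Klkb1 at the bottom high in the 5 marked libraries, and WT TCDD mouse 8 shares part of this pattern. C1s1, C2 and Klkb1 are partly covered by other gene spans, and C2 has few counts.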

How the data were processed

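The authors deposited raw read counts per gene, 1 file per liver. Per the submitters' processing notes they used HISAT2 2.1.0 and HTSeq 0.11.3 on GRCm38, with FastQC 0.11.9 and DESeq2 1.22.2, and per the labels' protocols 10 mg of liver gave RNA of an integrity number over 6.8. The 18 libraries were fitted in 1 model with edgeR 4.0.16 (R 4.3.3, limma 3.58.1) after filterByExpr, which kept 14835 genes, and TMM scaling. The 7 comparisons used quasi-likelihood tests, two-sided, adjusted by Benjamini-Hochberg over the 14835 genes, and called means an adjusted p under 0.05. The fit was tested on simulated data, which did not include the differences of the 5 libraries high in counts outside protein-coding genes. CPM were computed from the deposited counts with TMM-scaled library sizes. A count of 0 allows 3 counts, 0.110 to 0.236 CPM depending on the library, for counting error only. Given per liver were genes called in any comparison and the most abundant gene of each role, others by range and count. Exceptions were F11, Apoh, Mbl2, Hc and C9, singled out after their values were seen, and Fga, given for some livers. Some genes of the other lists are not reported here. The members and lists were chosen with earlier results of these data known. DESeq2 1.42.0, RLE scaling, other filters, fits of the compared groups alone and leaving out each library were the alternatives. No 2 libraries of a group agreed within sampling noise (chi-square per degree of freedom at least 20.4).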

Additional observations from a re-analysis of the deposited data

Results flagged for a closer look

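The TCDD response of C9 had opposite directions in dHep and dHSC: every dHep TCDD liver lay above every dHep vehicle liver, and every dHSC TCDD liver below every dHSC vehicle liver. The difference of the 2 responses was 1.42 ± 0.41 on the log2 scale. In a comparison chosen after the data were seen, this did not pass edgeR's quasi-likelihood test over all genes (adjusted p = 0.222), in which 0 of the 37 genes and 0.431% of all genes were called. At an unadjusted p under 0.05, 6 of the 37 differed, against 9.24% of all genes, and the median over the 37 was 0.43 against -0.03 for all genes.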

How the results depend on the processing

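Of the counts of called genes among the 37, those in dHep, in the dHSC against WT response and in both vehicle comparisons were 0 under all alternatives run. In WT the count of 2 became 3 with DESeq2 (F7, Mbl2 and Apcs), 3 with only the WT groups fitted (Plg, Mbl2 and Apcs), 6 without the 5 libraries and 6 with the covariate, both chosen after the data were seen, and ranged from 1 to 3 with each library left out. It was 1 without WT TCDD mouse 2 or 14 or WT vehicle mouse 7 or 13, and 3 without WT vehicle mouse 1. In dHSC the count of 1 became 3 with DESeq2, 0 with only the dHSC groups fitted, 0 without the 5 libraries and 4 with the covariate, and stayed at 1 with each library left out. In the dHep against WT response the count of 0 became 2 with DESeq2. No gene changed direction while called. Over all genes, the 798 calls in WT became 1345 with DESeq2, 1584 without the 5 libraries, 1926 with the covariate and 445 to 921 with 1 library left out; the 379 in dHSC became 729, 214, 792 and 169 to 297, and 75 with only its groups fitted. The 10 in dHep became 80, 0, 41 and 0 to 11, 19 with no filter and 0 with only its groups, and the 127 of the dHep against WT response 287, 19, 227 and 51 to 130. The median of the 37 genes in dHep ran from -0.09 to 0.19 with 1 library left out. Without the 5 libraries, dHep vehicle was 1 liver, assumed to vary like the other groups. No paired analysis was possible because each mouse number occurs in 1 group only. With 3 mice per group, differences of the size of most of these genes could not be told from 0.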
